A study of Mus musculus with 18 samples.

Results

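In the spleen of mice heterozygous for Dnmt3a R878H, 709 autosomal regions lost CpG methylation in CD4+ cells while losing little or none in CD11b+ cells. They were chosen by their measured values. Regions of the CD4 table and of the CD11b table that overlapped by at least 50% of both lengths were joined into 135766 pairs, and a pair was taken where the mean fell by at least 20 percentage points from WT to Dnmt3a R878H/+ in CD4+ cells and by at most 10 points in CD11b+ cells. Pairs whose WT means differed by 20 points or more between the cell types were left out. The 709 regions were 0.522% of all pairs. The opposite choice, a loss of at least 20 points in CD11b+ cells and at most 10 in CD4+ cells, gave 561 regions or 0.413%, which are called the mirrored set and are used for comparison. Because the 4 group means chose the regions, those means are given as a description and were not tested.

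Whole-genome bisulfite sequencing was performed on splenic CD11b+ cells, a myeloid fraction, and CD4+ cells, the helper and regulatory T cell fraction, each with 4 WT (Dnmt3a+/+) and 4 Dnmt3a R878H/+ mice. In the mutant mice Vav1-iCre, which acts across the blood lineages, switches on 1 R878H allele; R878H corresponds to the human hotspot R882H and acts as a loss of function. Control mice were described, for the transplantation experiments, as Cre-positive Dnmt3a+/+ or Cre-negative carriers of the floxed allele, and animals of both sexes were used, matched for age as young adults. The cells were taken by magnetic columns, so neither fraction was a single cell type.

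DNMT3A is a de novo DNA methyltransferase that adds methyl groups to CpG sites, and its loss in blood cells lowers methylation across many regions at once. Methylation is low at active promoters and enhancers, and many enhancers of the T cell lineage are bound by AP-1 factors (dimers of the FOS, JUN and BATF families), which act after T cell receptor stimulation. In myeloid cells C/EBP factors have a comparable place at lineage enhancers.

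Limits on these values come before the results. Each table holds the authors' mean per genotype and no value per mouse, so no error between mice can be given, and every interval below covers the number of regions only; regions are not replicates of a genotype. The tables name no genotype, and the first mean, the higher at nearly all pairs, was read as WT. The R878H CD11b+ group has 6 label entries for 4 replicate numbers; its mean times the cytosines times 4 was a whole number, within the rounding of the table, in 100% of rows, and times 6 in 49.99%, as for the other groups. The sample titles carry running S numbers of unstated meaning: they were over 200 in 4 of 4 R878H CD4+ samples, in 1 of 4 WT CD4+ samples, in 0 of 4 WT CD11b+ samples and in 2 of the 6 R878H CD11b+ entries, both second entries of a replicate. In CD4+ cells genotype and this number cannot be told apart from group means. Marker genes followed the labels only in part. Over 46 pairs at T cell genes the median of WT CD4+ minus WT CD11b+ was -10.4 points, against 1.23 points over all pairs. It was negative at Cd247, Cd5 and Bcl11b (-13.1, -25.8 and -12.2), and positive at Cd3e, Cd3g, Cd4 and Lck (0.904 to 4.90); Cd3d had no pair. Over 46 pairs at myeloid genes the median was 4.19 points, from 18.1 at Fcgr3, an Fc receptor, to -3.50 at Lyz2, a lysozyme gene, with -1.66 at Itgam, the gene of CD11b itself. At Cd79a, a B cell gene, WT CD11b+ cells were the lower by 24.8 points at 1 pair; the part of other cells in the CD11b+ fraction was not tested.

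The letters of a few regions show what such a region looks like. Sema4d and Il2rb are shown for their differences in loss, both at genes of T cells. The other 5 are shown for the AP-1 motif, TGANTCA, described further on: Fnbp1 and Cdc42bpa are among the regions with the largest differences in loss, and Rora, Icos and Stat4 are T cell genes. All are windows of 300 bases on the plus strand of mm10 (GRCm38). Capitals mark every CpG and, in the last 5, also the 7 letters of TGANTCA.
Sema4d, intron, chr13:51732339-51732638: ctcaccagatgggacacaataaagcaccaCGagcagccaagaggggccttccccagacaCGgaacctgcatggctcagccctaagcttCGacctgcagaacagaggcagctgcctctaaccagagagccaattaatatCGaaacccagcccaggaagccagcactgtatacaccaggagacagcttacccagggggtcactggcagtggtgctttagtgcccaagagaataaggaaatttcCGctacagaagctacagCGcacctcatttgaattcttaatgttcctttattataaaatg
Il2rb, promoter, chr15:78492509-78492808: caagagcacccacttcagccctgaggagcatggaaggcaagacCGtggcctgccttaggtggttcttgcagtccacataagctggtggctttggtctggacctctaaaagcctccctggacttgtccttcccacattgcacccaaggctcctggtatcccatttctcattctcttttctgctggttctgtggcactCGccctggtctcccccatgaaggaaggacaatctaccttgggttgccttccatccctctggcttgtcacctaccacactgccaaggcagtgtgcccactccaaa
Fnbp1, exon, chr2:31036909-31037208: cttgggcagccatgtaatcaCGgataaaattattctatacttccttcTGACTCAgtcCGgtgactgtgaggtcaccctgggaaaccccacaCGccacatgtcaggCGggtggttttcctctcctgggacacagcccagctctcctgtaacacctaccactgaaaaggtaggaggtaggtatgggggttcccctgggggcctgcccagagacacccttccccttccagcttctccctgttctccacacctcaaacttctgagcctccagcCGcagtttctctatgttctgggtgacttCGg
Cdc42bpa, intron, chr1:180146285-180146584: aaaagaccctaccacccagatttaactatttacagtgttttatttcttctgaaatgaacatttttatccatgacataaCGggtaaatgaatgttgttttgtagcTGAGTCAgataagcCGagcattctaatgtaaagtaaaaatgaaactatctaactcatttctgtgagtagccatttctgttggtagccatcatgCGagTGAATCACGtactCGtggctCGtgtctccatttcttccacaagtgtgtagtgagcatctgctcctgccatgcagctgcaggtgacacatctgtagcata
Rora, intron, chr9:69156422-69156721: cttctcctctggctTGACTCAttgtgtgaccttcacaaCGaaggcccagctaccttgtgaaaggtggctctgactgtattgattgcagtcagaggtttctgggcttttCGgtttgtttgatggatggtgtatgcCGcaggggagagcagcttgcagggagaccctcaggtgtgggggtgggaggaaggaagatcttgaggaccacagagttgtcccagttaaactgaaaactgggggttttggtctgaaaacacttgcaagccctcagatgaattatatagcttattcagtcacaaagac
Icos, intron, chr1:60989109-60989408: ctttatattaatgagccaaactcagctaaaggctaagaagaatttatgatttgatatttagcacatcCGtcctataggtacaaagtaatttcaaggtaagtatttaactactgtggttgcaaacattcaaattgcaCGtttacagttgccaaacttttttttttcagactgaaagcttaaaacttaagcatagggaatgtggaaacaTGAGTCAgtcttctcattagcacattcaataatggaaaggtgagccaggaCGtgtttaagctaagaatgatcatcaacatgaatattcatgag
Stat4, intron, chr1:52012747-52013046: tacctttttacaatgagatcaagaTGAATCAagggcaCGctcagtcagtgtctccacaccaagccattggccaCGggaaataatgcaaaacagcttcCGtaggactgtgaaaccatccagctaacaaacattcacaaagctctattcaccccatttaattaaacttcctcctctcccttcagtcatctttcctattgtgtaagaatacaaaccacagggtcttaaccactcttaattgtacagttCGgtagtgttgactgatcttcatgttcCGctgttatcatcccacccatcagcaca
The windows hold few CpG sites, from 2 in the Il2rb window to 6 in those of Sema4d, Fnbp1 and Cdc42bpa.

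Most regions with a large loss in CD4+ cells had also lost methylation in CD11b+ cells. A loss of at least 20 points in CD4+ cells was measured at 12.9% of all pairs (17579), and in CD11b+ cells at 12.7%. Of the 17579, CD11b+ cells lost at least 20 points at 62.8%, between 10 and 20 points at 32.1%, and at most 10 points at 5.12% (900 pairs), whereas 60% of all pairs lost at most 10 points in CD11b+ cells. The WT limit removed 191 of the 900, and WT CD4+ cells were the more methylated at 174 of these. The 709 regions form the edge of 1 continuous cloud of pairs and not a separate cluster, as the plot of both losses shows.

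**Figure D1:**
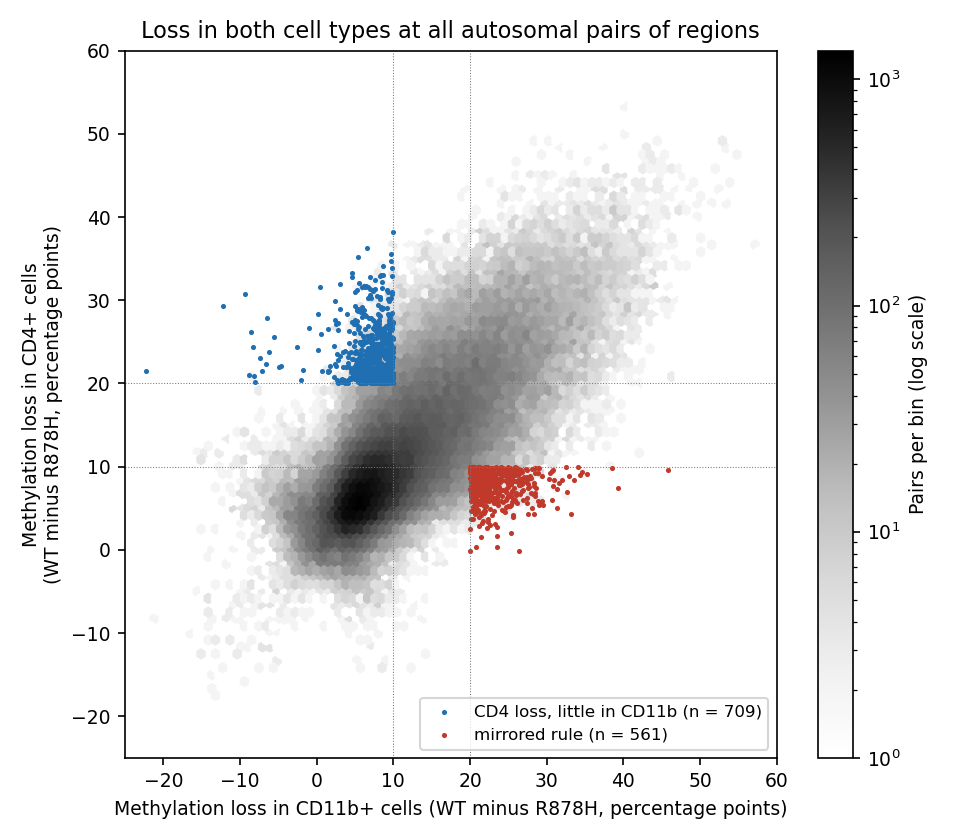
Loss of methylation (WT minus R878H, percentage points) in CD11b+ cells on the x axis and CD4+ cells on the y axis for all 135766 pairs, in grey by number of pairs per bin on a log scale. Blue points are the 709 regions and red points the 561 of the mirrored set, and dotted lines mark 10 and 20 points; both sets lie along the edges of the grey cloud.

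At the 709 regions the median WT level was nearly the same in both cell types, 77.6% in CD4+ and 78.4% in CD11b+ cells. In R878H mice it was 53.4% in CD4+ cells and 71.1% in CD11b+ cells. The median loss was 22.6 points in CD4+ cells (quartiles 21 and 25.2) and 7.78 points in CD11b+ cells (6.06 and 9.07), against 8.70 and 8.23 points over all pairs. Little loss therefore meant a loss close to that of all pairs. As a share of the WT level, CD4+ cells lost a median of 31.1% and CD11b+ cells 10.3%. At 18 of the 709 regions the WT level in CD11b+ cells was under 20%, so that a loss of 20 points could not occur there. WT levels of both cell types lay within 10 points of each other at 506 regions (71.4%).

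**Figure D2:**
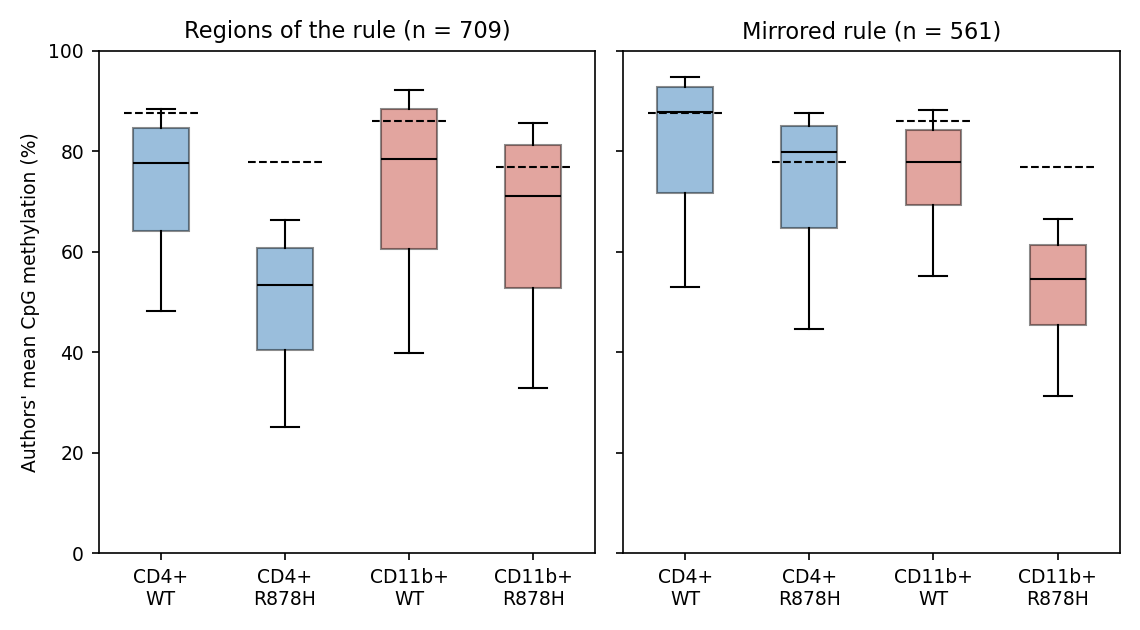
The authors' mean CpG methylation (%) in each group for the 709 regions (left) and the 561 of the mirrored set (right). Boxes span the quartiles with the median as a line, whiskers the 10th to 90th percentiles over regions, and dashed lines the median of all pairs; on the left R878H CD4+ cells stand lowest, at a median of 53.4%.

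Many regions lay near the limits that chose them. The CD4+ loss was at least 25 points at 189, at least 30 at 45 and at least 35 at 4 regions. The CD11b+ loss was at most 5 points at 93 regions, and 27 regions met both a CD4+ loss of at least 25 and a CD11b+ loss of at most 5, against 8 of the mirrored set for the opposite condition. The difference between the losses was at least 20 points at 123 regions and at least 30 at 10, against 56 and 2 in the mirrored set. Just inside the CD4 limit a region nearest to Adm fell from 28.5% to 8.53%, a loss of 20 points, and just outside it a region nearest to Sept9 had a loss of 19.981 points. At the CD11b limit a region nearest to Il10ra, an interleukin-10 receptor chain, lost 10 points there, and one nearest to Tnip1, an inhibitor of NF-kappaB signalling, lost 10.025 and was outside. At the WT limit a region nearest to Tigit, an inhibitory receptor of T cells, was inside with 61.2% in WT CD4+ and 81.1% in WT CD11b+ cells, and one nearest to Elmo2, which acts in cell engulfment and migration, was outside with 31.7% and 11.6%.

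At 9 of the 10 regions with the largest difference between the losses, methylation was higher in R878H than in WT CD11b+ cells. A gain in CD11b+ cells enlarges this difference, so the ranking itself favours such regions. Over all 709, R878H was the higher in CD11b+ cells at 20 regions (2.82%), against 3.42% of all pairs. In an intron of Sema4d, a semaphorin of T cells (chr13:51732193-51732785), CD4+ cells went from 65.8% to 36.5% and CD11b+ cells from 53.9% to 66.03%. In an intron of Gfra1, a receptor for GDNF (chr19:58435813-58436174), CD4+ cells went from 56.2% to 25.5% and CD11b+ cells from 49.0% to 58.3%. The 2 tables gave this region nearly the same limits, with an overlap of 99.7%. An exon of Fnbp1, a membrane-bending protein, went from 69.8% to 41.9% in CD4+ and from 75.8% to 82.2% in CD11b+ cells.

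The other regions of these 10 had the same form at genes of diverse functions. Between genes, 50.3 kb from the start of Vangl2, a planar polarity protein, CD4+ cells went from 74.7% to 48.5% and CD11b+ cells from 73.4% to 82.0%. In Smg6, a nuclease of nonsense-mediated decay, CD4+ cells went from 39.5% to 15.1% and CD11b+ cells from 20.8% to 29.1%. Near Cpne5, a copine, CD11b+ cells barely differed (85.2% and 84.7%) while CD4+ cells went from 82.0% to 50.4%; this was the only 1 of the 10 without a higher R878H level in CD11b+ cells. Alpk2, Chst2 (a carbohydrate sulfotransferase) and a region near Tmem131 lost 25.6, 23.0 and 23.8 points in CD4+ cells, and WT minus R878H in CD11b+ cells was -5.50, -7.34 and -6.23 points. The largest difference of all, at the promoter of Hmga1b (CD4+ 26.4% to 4.85%, CD11b+ 16.8% to 39.1%), is uncertain. Hmga1b is a close copy of Hmga1, whose reads it can share, and the 2 regions overlapped by only 50.4%. The overlap was also limited at Vangl2 (50.5%, with 29 CD4 and 10 CD11b cytosines), Tmem131 (59%), Cpne5 (59.7%), Smg6 (64.6%) and Fnbp1 (67.3%). In these the 2 cell types were measured on partly different sequence. It was higher at Sema4d (82.2%), Alpk2 (89.4%) and Chst2 (90.3%).

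Promoters, taken as 1 kb to each side of a protein-coding transcription start, held 74 of the 709 regions, or 10.4% (95% Wilson interval 8.396 to 12.9). The share was 6.38% over all pairs, 6.95% in the mirrored set (5.13 to 9.36) and 12.3% at pairs that lost at least 20 points in both cell types. A share above that of all pairs was thus shared with regions that lost methylation in both cell types. Introns held 298 regions, intergenic sequence 274 and exons 63; the median distance to the nearest start was 17.9 kb.

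Among promoters, Il2rb held the largest difference after Hmga1b. Il2rb encodes the beta chain of the interleukin-2 and interleukin-15 receptors. The region inside the gene (chr15:78492266-78493051), 705 bp from a transcript start within it, went from 82.1% to 59.7% in CD4+ cells. In CD11b+ cells it went from 76.9% to 83.4%. The other, 459 bp from a start of the gene on its outer side, went from 76.1% to 51.3% in CD4+ and from 76.9% to 72.7% in CD11b+ cells. A further region nearest to Il2rb, 16.7 kb from its start, went from 55.5% to 28.6% in CD4+ and from 58.6% to 51.8% in CD11b+ cells. So 3 of the 709 regions had Il2rb as nearest gene. At the promoter of Elmo2, where another region was among the 709, CD4+ cells went from 41.8% to 13.0% and CD11b+ cells from 37.7% to 32.4%. At Nlrc5, the transactivator of MHC class I genes, they went from 74.0% to 49.6% and from 72.1% to 69.8%. Promoter regions at Zfp870, Pithd1, Slc25a1 (the mitochondrial citrate carrier), Adtrp and Eif2ak4 (the amino acid sensor GCN2) lost between 25.5 and 30.3 points in CD4+ cells and between 6.88 and 9.75 in CD11b+ cells.

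Regions at T cell genes made up more of the 709 than of all pairs. A list of T cell genes (75 in the annotation, counted with 5 kb to each side) held 11 regions, or 1.55% of the 709 (0.869 to 2.76), against 0.467% of all pairs and 0.357% of the mirrored set, which had 2 regions there. By gene, 8 of 71 T cell genes with any pair held a region (11.3%), against 524 of 16149 protein-coding genes (3.24%). In the mirrored set it was 2 of 71. The count by gene does not allow for the number of pairs: the 71 genes held 634 pairs and the 16149 genes 84119. Genes with a region in the body had a median of 9 pairs, against 3 for the other genes with a pair. The list was chosen with earlier results of these data known, and 11 regions are few.

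Rora, a nuclear receptor of Th17 cells, held 3 of these regions, all in introns. They went from 88.6% to 57.0%, from 84.1% to 53.5% and from 71.6% to 50.1% in CD4+ cells. In CD11b+ cells the same regions went from 92.8% to 86.1%, from 90.8% to 83.9% and from 68.7% to 63.6%. The remaining 92 pairs of Rora outside both sets lost a median of 10.1 points in CD4+ and 9.72 in CD11b+ cells. Pair by pair, the median of the CD4+ loss minus the CD11b+ loss was -0.759 points at these 92.

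Other T cell genes held 1 region each. In Tnfrsf4, the costimulatory receptor OX40, an exon region went from 85.2% to 61.6% in CD4+ and from 92.6% to 88.3% in CD11b+ cells. In Icos, another costimulatory receptor, an intron region went from 82.5% to 58.2% and from 91.3% to 82.8%. In Runx1, a transcription factor of blood cells, an intron region went from 79.99% to 57.7% and from 83.9% to 78.6%. In Tnfrsf4, Icos and Runx1 the WT level was already lower in CD4+ cells. The rule therefore set the mutant CD4+ level below that of mutant CD11b+ cells. In Nfatc1, a calcium-regulated transcription factor, CD4+ cells lost 23.0 points and CD11b+ cells 4.56. In Tox, a nuclear factor of T cell development, WT levels already differed (72.6% in CD4+ and 90.3% in CD11b+ cells), with losses of 23.2 and 9.75 points. In Stat4, the mediator of interleukin-12 signals, WT levels were low (32.3% and 13.8%), and the CD11b+ cells could not have lost 20 points.

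**Figure D3:**
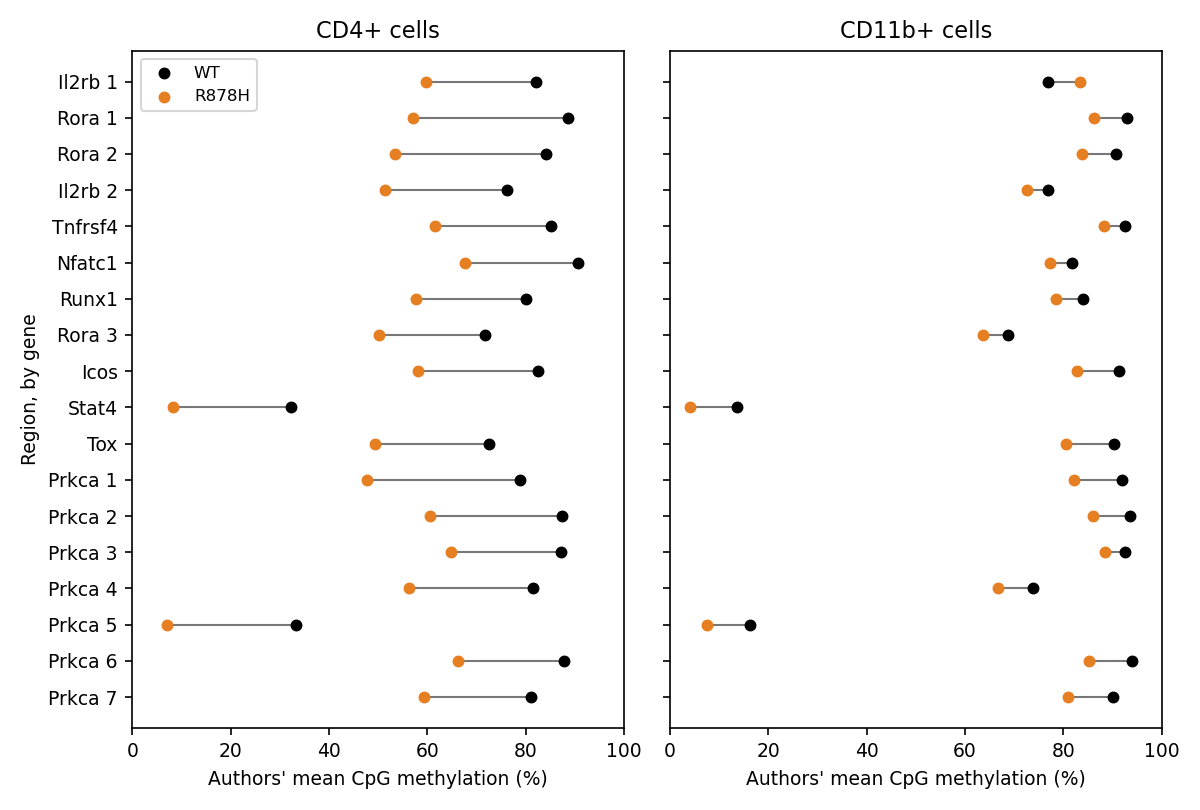
The authors' mean CpG methylation (%) in WT (black) and R878H (orange) mice for the 11 regions at T cell genes and the 7 in Prkca, in CD4+ cells (left) and CD11b+ cells (right). Lines join the 2 genotypes; every line is at least 20 points long on the left and at most 10 on the right, as the choice of regions sets, and at the first Il2rb region the order in CD11b+ cells is turned.

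Genes of other lists held 3 or fewer of the 709 regions. Of 53 myeloid genes with a pair, 3 held a region: Mpo (myeloperoxidase), Cx3cr1 (the fractalkine receptor) and Trem1 (a receptor that amplifies inflammation), or 0.423% of the regions (0.144 to 1.24) against 0.172% of all pairs. At the Mpo promoter CD4+ cells went from 86.6% to 65.8% and CD11b+ cells from 85.3% to 79.1%. The B cell factor Ebf1 held 2 regions, the only ones of the B cell list, or 0.282% of the regions (0.0774 to 1.02) against 0.0781% of all pairs, so a share above that of all pairs was not limited to T cell genes. The stem cell factor Prdm16 held 1, or 0.141% against 0.260% of all pairs for its list. Genes of osteoclasts and inflammation held 1, the Nfatc1 region, or 0.141% against 0.140%. The mirrored set had 4 regions at this list (0.713% of that set) and 3 at the stem cell list (0.535%). It had 2 at the myeloid list (0.357%) and 0 at the B cell list. The mTOR list, with 0.126% of all pairs, held 0 (mirrored set 2), and the natural killer cell list, with 0.00368%, held 0; at such shares a count of 0 is near the background.

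Prkca, which encodes protein kinase C alpha, held the most regions of all genes, 7 of its 67 pairs, all in introns, and none of the mirrored set. At 6 of them WT CD4+ cells were between 78.7% and 87.8% methylated and R878H cells between 47.8% and 66.3%. The seventh stood apart, with 33.3% and 7.08% in CD4+ and 16.3% and 7.67% in CD11b+ cells. At that WT level the CD11b+ cells could not have lost 20 points. In Prkca 16 pairs lost at least 20 points in CD4+ cells and 6 did in CD11b+ cells. The 60 other pairs of the gene lost a median of 9.91 and 7.90 points. Taken pair by pair, however, the median of the CD4+ loss minus the CD11b+ loss was -0.4 points there. Wwox, a large oxidoreductase gene, held 4 regions among 144 pairs, and Tspan5, a tetraspanin, held 2 among 33, a number that other genes shared. The gene model Gm20388 held 5, but it spans several genes and 613 pairs.

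Pairs beside these regions that belonged to neither set were described in the same way. Within 5 kb there were 920 such pairs beside 493 of the regions, and they lost a median of 11.7 points in CD4+ cells and 10.3 points in CD11b+ cells. The loss was larger in CD4+ cells at 57.9% of them, against 52.8% of all pairs and 44.9% of pairs beside the mirrored set. Within 2 kb the share was 63.1% (366 pairs), with a median difference of 1.48 points. The median difference at the regions themselves was 15.6 points, a value that the rule sets to at least 10 and that cannot be weighed against the neighbouring pairs. The regions were also scattered: 24 had another of the 709 within 10 kb, and they made up from 0.356% of pairs on chromosome 14 to 0.705% on chromosome 11, which holds Prkca.

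The 709 regions carried the AP-1 motif more often than other pairs. The letters TGANTCA were found on either strand in a 300 bp window at the centre of 140 regions, or 19.8% (17.0 to 22.8), against 10.3% of the windows of all pairs and 10.2% (7.93 to 12.9) of the mirrored set. Limited to the 2 forms TGACTCA and TGAGTCA the shares were 15.1%, 6.48% and 6.24%. Outside soft-masked (repetitive) sequence they were 16.9%, 8.83% and 8.91%. A match is a description of the sequence, not a bound site.

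The share moved with how much CD11b+ cells had lost. Among pairs with a CD4+ loss of at least 20 points and WT levels within 20 points, it was 19.8% where CD11b+ cells lost at most 10 points, 13.7% (12.8 to 14.8) between 10 and 20 points, and 11.6% (10.9 to 12.2) at 20 points or more. Within the 709 regions it was 15.3% (11.7 to 19.8) where the losses differed by less than 15 points, 22.2% between 15 and 20 points, and 25.2% (18.4 to 33.6) at 20 points or more; these intervals overlap. The level was similar in promoters or exons (18.98%) and in introns or intergenic sequence (19.9%). With WT levels within 5 points it was 20.6% (16.3 to 25.7), against 9.96% of all such pairs. Where WT CD4+ cells were lower than WT CD11b+ cells by 5 points or more it was 25.3% (19.8 to 31.7), against 10.7% of all such pairs. Where they were higher by 5 points or more it was 13.8% (9.88 to 18.9), an interval that holds the 10.9% of all such pairs.

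The mirrored set differed in another motif, that of C/EBP factors. TTGCNNAA was in 20.7% (17.5 to 24.2) of its windows, against 12.6% (10.3 to 15.2) at the 709 regions and 13.2% at all pairs. Among mirrored regions where WT CD4+ cells were higher by 5 points or more the share was 25.6%, and with WT levels within 5 points it was 15.5% (10.7 to 21.9), against 15.7% and 12.4% of all such pairs. Within 10 points it was 16.9% (13.2 to 21.4), against 12.6%.

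**Figure D4:**
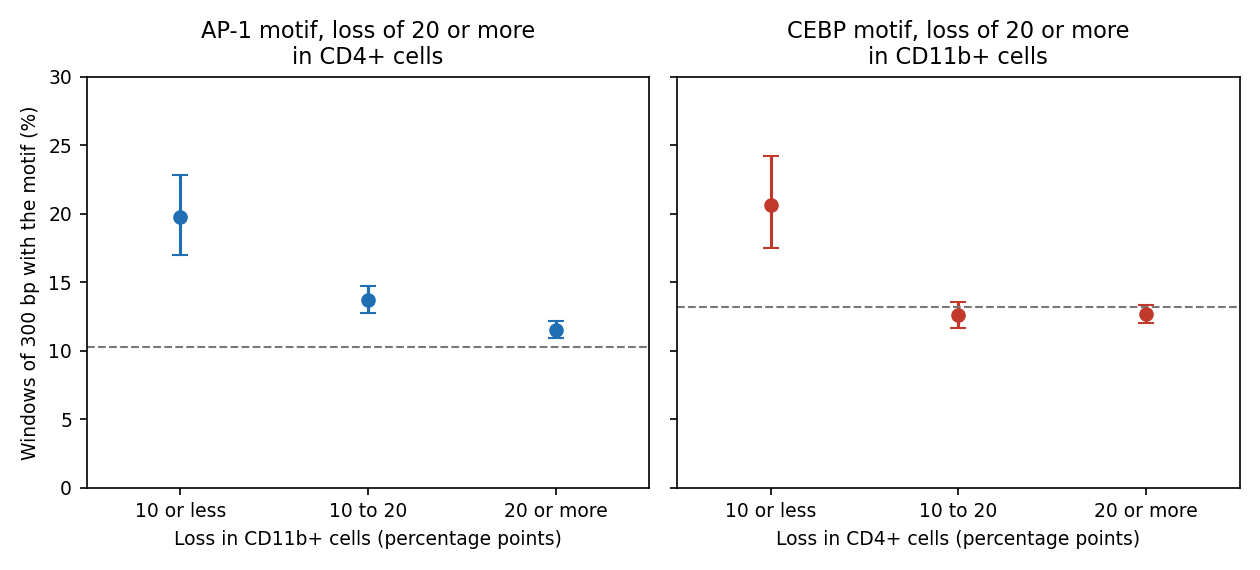
Share of 300 bp windows (%) with the AP-1 motif among pairs that lost at least 20 points in CD4+ cells, by loss in CD11b+ cells (left), and with the C/EBP motif among pairs that lost at least 20 points in CD11b+ cells, by loss in CD4+ cells (right). Bars are 95% Wilson intervals over regions and dashed lines all pairs; the first point on the left is the 709 regions (19.8%) and on the right the mirrored set (20.7%).

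Both motifs lay towards the centre of their regions. In rings of 150 bp from the centre outwards, the AP-1 motif was found at 19.8%, 14.0%, 11.7% and 9.45% of the 709 regions, against 10.5%, 9.73%, 9.32% and 9.11% of all pairs. From 450 bp outwards the shares of the regions were close to those of all pairs.

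**Figure D5:**
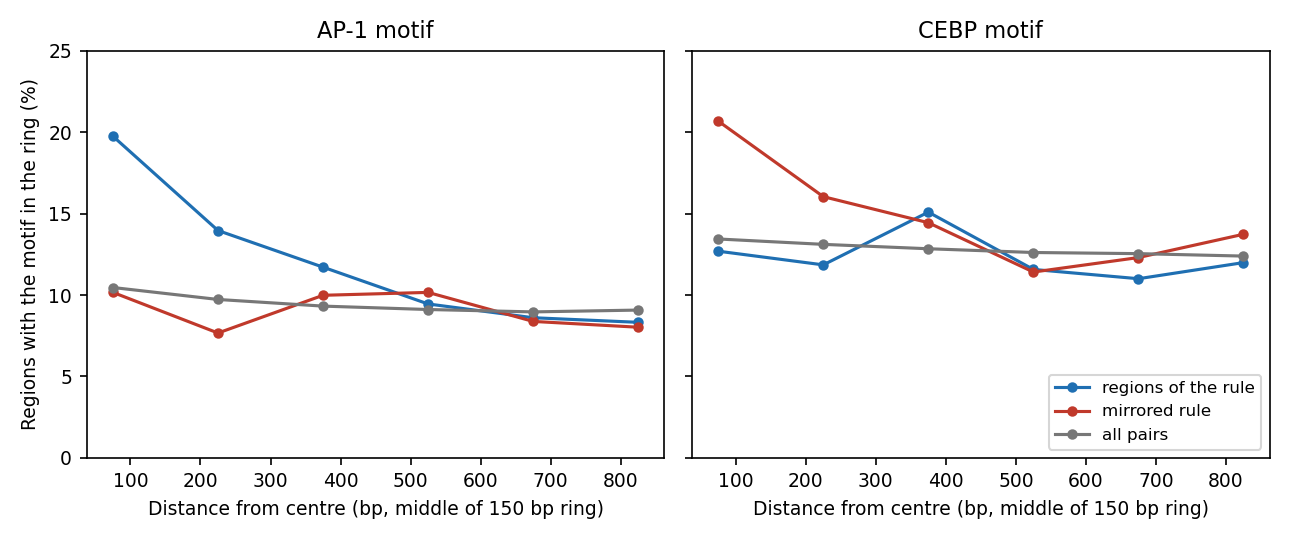
Share of regions (%) with the AP-1 motif (left) or the C/EBP motif (right) in rings of 150 bp around the centre, for the 709 regions (blue), the mirrored set (red) and all pairs (grey). The blue line starts at 19.8% on the left and meets the grey line from 450 bp outwards.

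Of 9 motifs searched, the other 7 differed from all pairs by fewer points at the 709 regions than AP-1 did. The TCF/LEF motif ATCAAAG was in 6.77% (5.14 to 8.86) of the windows, against 4.86% of all pairs and 4.28% of the mirrored set. The motif AGATAA of GATA factors was in 14.7% against 17.1%. The motif TGTGGT of RUNX factors was in 23.1% against 22.5%. The ETS motif ACAGGAAG was in 5.64% against 4.36%, and the PU.1 motif GAGGAAGT, which can lie within longer ETS sites, in 3.81% against 2.74%. The E-box CAGCTG was in 16.8% against 15.0%, and STAT (TTCCNGGAA) in 0.846% against 1.03%.

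Of the 11 regions at T cell genes, 3 had the AP-1 motif in the window, those of Rora, Icos and Stat4 printed above, and 5 had it in the region as a whole. None of the 7 Prkca windows had it, though 4 of the 7 regions did. Of the 20 regions with a higher R878H level in CD11b+ cells, 3 had it in the window.

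In base composition the regions were close to all pairs. They held a median of 1.52 CpG per 100 bp against 1.39, 46.5% GC against 45.9%, and 11.1% soft-masked sequence against 12.8%; at pairs lost in both cell types the CpG density was 1.93. Their median length was 500 bp and they were measured at a median of 10 cytosines, the fewest a table holds. Their limits matched less well than those of other pairs: 29.9% overlapped by at least 80%, against 39.5% of all pairs, and 25 had identical limits in both tables. Among these 25 were 1 in Tet2, a demethylating enzyme (CD4+ 85.9% to 64.9%, CD11b+ 91.6% to 86.0%), and 1 near Klf6, a zinc finger factor (86.0% to 57.2% and 90.1% to 84.9%). At more than 20 cytosines in both tables there were 7 regions, in Ppp1r16b, Tcf7l2, Mmp10, Hlcs, Fam234a and Zfp839 and near Cited2. In Ppp1r16b, a regulator of protein phosphatase 1, CD4+ cells went from 74.5% to 38.2% and CD11b+ cells from 86.0% to 79.5%, with 26 cytosines in each table. In Tcf7l2, a TCF factor of Wnt signalling, they went from 86.7% to 59.1% and from 92.4% to 87.5%.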

How the data were processed

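Whole-genome bisulfite sequencing libraries of splenic CD11b+ and CD4+ cells were mapped by the authors to mm10 with BISCUIT, and the CpG ratios were passed to metilene, which divided the genome into regions; tool versions, segmentation settings and a coverage minimum per site are not given in the sources used here. A sequencing coverage is stated for the libraries, but the depth behind each region is unknown. The study's criteria for a differentially methylated region (number of CpGs, size of the difference and false discovery rate) were not applied here. Each deposited table (411770 rows for CD11b+ and 553467 for CD4+ cells) gives the authors' mean methylation of each genotype in percent and a count of CpG cytosines per region, at least 10. Further deposited columns hold the authors' own q and p-values and difference, and were not used.

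Here, autosomal regions (407396 and 547975) were paired by 50% reciprocal overlap, and losses were computed as the first mean minus the second. Gene classes came from protein-coding transcripts of GENCODE M21 and sequences from GRCm38 (RefSeq). Promoters extended 1 kb and genes 5 kb to each side. The members, comparisons and lists were chosen with earlier results of these data known, and the 9 motifs were chosen after the tables were opened. Named genes are those of the 10 largest differences in loss, the 10 largest at promoters, list genes with a region, the 5 genes with most regions and regions next to each limit; further regions (identical limits, over 20 cytosines, Cdc42bpa, the third Il2rb region) were named after their values were seen. No test was made, since no value per mouse was at hand. Pairing and counting were tested on simulated data. Python 3.11.15, pandas 2.3.3 and scipy 1.17.1 were used.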

Additional observations from a re-analysis of the deposited data

How the results depend on the processing

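The tables give means per genotype, at unknown depth, so no result has an error between mice. No paired analysis was possible because the tables hold no values per mouse, and leaving out each mouse was not run for the same reason. The number of regions, 709, followed the limits: 212 with an overlap of at least 80%, 93 with a CD11b+ loss of at most 5 points, 189 with a CD4+ loss of at least 25 points, 184 with more than 10 cytosines in both tables and 7 with more than 20. At those 7 regions the neighbouring pairs lost a median of 16.7 points in CD4+ and 14.1 in CD11b+ cells, from 7 pairs; the median of the difference was -1.53 points there, against 1.18 points beside all regions, and the CD4+ loss was the larger at 2 of the 7. The promoter share was 15.7% with promoters of 2 kb and 8.15% with more than 10 cytosines, where the CpG density was 1.80 per 100 bp. The AP-1 share, under alternatives chosen after seeing the data, was 32.0% over whole regions, against 18.5% of all pairs and 16.8% of the mirrored set, and 15.1% for TGACTCA or TGAGTCA alone; it was 18.4% with an overlap of at least 80% and 22.3% with more than 10 cytosines. Of 27 alternatives, 15 left the value within its interval or within 1.5 times for a count, and 12 moved it. The listed values are counts, shares, densities and median losses, so a change of sign was not looked for. The difference at neighbouring pairs, which was negative beside the 7 regions, was not among the listed values.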
